A study of Mus musculus with 9 samples.

Results

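Zfp900 to Zfp999 are mouse zinc finger genes that carry consecutive numbers in the nomenclature. They were chosen by their symbol, Zfp with a 3-digit number that opens with 9 and nothing after it, and by their read counts, which had to reach at least 50 when summed over the 9 libraries. This gave 47 genes of the 55401 in the annotation, out of 64 genes with a symbol in the range. The count sum that chose them was read from the same libraries, so their presence in these nuclei is a description and not a finding. Just inside the minimum lay Zfp986 with 66 counts, Zfp990 with 90 and Zfp935 with 91, and just outside it Zfp985 with 37, Zfp936 with 28 and Zfp981 with 25.

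RNA was sequenced from cortical nuclei sorted for NeuN, a protein of neuronal nuclei, in 3 groups of 3 libraries from mice aged 7 to 9 months. The first group carried a P301S Tau transgene and received the Cdk5i peptide, which is named after the neuronal kinase Cdk5. The second carried the same transgene and received a scrambled peptide, and the third was wild type and received nothing. Both peptides were given intraperitoneally at 20 mg/kg on alternate days. P301S is a human tau mutation of inherited frontotemporal dementia, and the labels name neither the transgenic line nor the promoter that drives it. In both comparisons with wild type, genotype and injection cannot be told apart. No label states that the libraries of a group came from separate animals, so the p-values given here rest on the spread of these libraries alone, part of which could be technical. In such bulk samples, fewer cells of a type and less RNA per cell cannot be told apart either.

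Zinc finger proteins of this kind read DNA through a row of zinc-binding fingers, and many carry a KRAB domain in front of them. The KRAB domain binds Trim28, a scaffold that brings in the histone methyltransferase Setdb1 and other repressors, and the best known targets of such complexes are transposable elements. The genes arose by repeated local duplication, so that they stand in clusters of similar copies, differ between mouse strains and species, and share stretches of sequence that short reads cannot always place.

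The 47 genes were spread over the genome as 7 clusters and 15 lone genes, when genes no more than 2 Mb apart were joined. The largest cluster lay on chromosome 17 (chr17:21567008-22867134, GRCm38) and held 10 genes, Zfp948, Zfp983, Zfp995, Zfp942, Zfp943, Zfp947, Zfp994, Zfp944, Zfp946 and Zfp945. A cluster on chromosome 4 (chr4:145510759-147848366) held 7, in the order Zfp990, Zfp986, Zfp992, Zfp991, Zfp982, Zfp984 and Zfp933, and one on chromosome 2 (chr2:176670522-178078476) held Zfp973, Zfp970, Zfp972, Zfp971 and Zfp931. Smaller ones held Zfp977, Zfp976 and Zfp975 on chromosome 7, Zfp930, Zfp964 and Zfp963 on chromosome 8, Zfp974 and Zfp940 on chromosome 7, and Zfp935 and Zfp934 on chromosome 13. With joining distances of 1 and 5 Mb there were 6 and 7 clusters. The 15 lone genes were Zfp937, Zfp951, Zfp932, Zfp956, Zfp954, Zfp939, Zfp941, Zfp958, Zfp961, Zfp949, Zfp938, Zfp960, Zfp952, Zfp959 and Zfp950. The genes lay on both strands, 24 on the plus and 23 on the minus strand. The pair Zfp934 and Zfp935 overlapped each other, and 10 of the 47 overlapped some gene on their own strand. Reads in such an overlap cannot be assigned.

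The annotated transcripts of most of the 47 genes coded for finger repeats. A finger repeat was counted in the longest reading frame, and the median was 11 fingers per gene with a range of 0 to 21. Zfp972 and Zfp986 had none in their short frames, and Zfp939 had no coding transcript in the annotation used. To see which genes reads can tell apart, their transcripts were broken into words of 40 bases, the length of a read. A median of 19.3% of a gene's words also occurred in transcripts of another gene. The share was under 5% for 15 genes and over 50% for 9, and for Zfp935 every word was found elsewhere too. The 17 genes of the number range that stayed under the count minimum had a median share of 77.0%, with 11 of them over 50%. Introns, which these libraries also read, were not part of this comparison. Words were matched singly and on both strands, whereas the reads were stranded pairs. The transcripts came from another annotation release than the counts. The shares are therefore not the part of the reads that cannot be placed.

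Promoter windows running from 250 bases before to 50 bases after the start were found for 40 of the 47 genes in RefSeq (GRCm38.p6). A stretch in them returned in genes of different chromosomes. It holds CCAATCA and, 18 bases further on, GCCAGTCAGA, a 10-letter word. No 10-letter word was found in more of the 40 windows than this one, and of 3 overlapping words tied for this it is the one furthest downstream. Motifs were searched on both strands. They were chosen from these windows, so no test is given. The windows of 7 of these genes follow, 5′ to 3′, because they show which letters are kept between clusters. Between the motifs Zfp970, Zfp971 and Zfp931 have the same letters, while the genes printed from other chromosomes differ from them at several places. Capitals mark both motifs.
Zfp970 (chr2:177464668-177464727, plus strand): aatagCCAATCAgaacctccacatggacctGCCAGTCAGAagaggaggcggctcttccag
Zfp971 (chr2:178023201-178023260, plus strand): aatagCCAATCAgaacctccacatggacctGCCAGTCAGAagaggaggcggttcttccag
Zfp931 (chr2:178078479-178078538, minus strand): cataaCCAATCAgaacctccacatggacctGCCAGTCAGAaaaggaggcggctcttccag
Zfp951 (chr5:104860075-104860134, minus strand): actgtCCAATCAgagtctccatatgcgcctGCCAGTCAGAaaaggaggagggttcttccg
Zfp932 (chr5:109996450-109996509, plus strand): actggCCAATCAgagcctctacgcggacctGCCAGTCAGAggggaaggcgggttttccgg
Zfp975 (chr7:42692776-42692835, minus strand): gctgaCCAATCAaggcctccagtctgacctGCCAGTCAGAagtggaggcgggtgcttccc
Zfp950 (chr19:61140818-61140877, minus strand): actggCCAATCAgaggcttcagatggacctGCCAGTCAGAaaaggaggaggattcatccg

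GCCAGTCAGA was present in 11 of the 40 windows (27.5%), against 0.794% of 252 windows of other numbered Zfp genes and 0.389% of all 27025 genes in the table. These 11 were the 5 genes of the chromosome 2 cluster, Zfp977, Zfp976 and Zfp975 on chromosome 7, Zfp951 and Zfp932 on chromosome 5, and Zfp950 on chromosome 19. In 11 of the 11 it began 7 to 87 bases before the RefSeq start and stood 18 bases after a CCAATCA. Among all genes of the table, 62 (0.229%) had this arrangement, and 38 of them were predicted genes with Gm numbers. CCAATCA alone was found in 57.5% of the 40 windows, in 16.3% of those of other numbered Zfp genes and in 9.00% of all. TATAAA was found in 0 of the 40 windows and in 15.7% of all. A match describes these letters and is neither a bound site nor a cause.

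Of the chromosome 4 cluster, Zfp982, Zfp984 and Zfp933 had a window in the table, and none of these held the stretch.

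The libraries held 21584712 to 26715938 counts each. Neuronal markers were read far above those of other cells. The 6 neuronal markers (Rbfox3, the NeuN gene, with Snap25, Syt1, Slc17a7, Gad1 and Gad2) summed to 5112 to 6195 CPM in Cdk5i libraries, 5129 to 5791 CPM in scrambled-peptide libraries and 5423 to 5985 CPM in wild-type libraries. CPM are counts scaled to a common library size. The 5 markers of oligodendrocytes summed to 68.8 to 115, 71.2 to 101 and 66.0 to 76.6 CPM in the same order, and the 5 of astrocytes to 350 to 518, 399 to 515 and 467 to 549 CPM. The 5 of microglia summed to 56.4 to 133, 67.2 to 80.4 and 52.3 to 159 CPM, the highest value being that of wild-type replicate 3. The 3 of oligodendrocyte precursors and the 4 of vascular cells reached at most 24.2 and 3.54 CPM. No marker of these lists was at 0 in all libraries, and their part in the results below was not tested.

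Most of the 47 genes were read at modest levels that differed little between the 3 groups. The median gene had 9.46 CPM, with a range of 0.308 to 63.4 CPM, and the 274 other numbered Zfp genes had a median of 9.36 CPM. All 47 together gave 577 ± 26.5 CPM in Cdk5i libraries, 573 ± 5.18 CPM in scrambled-peptide libraries and 592 ± 13.4 CPM in wild-type libraries (SD, n = 3 each). The libraries of the 3 groups overlapped in these sums.

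To compare genes with each other, levels were divided by gene length, since introns were counted. The median was 0.449 CPM per kb, against 0.561 for the other numbered Zfp genes and 0.548 for all 16046 genes tested. The highest levels per kb were those of Zfp941 (1.40), Zfp945 (1.34), Zfp938 (1.24), Zfp956 (1.11), Zfp948 (1.10) and Zfp961 (1.07), followed by Zfp971 (1.03), Zfp933 (0.986), Zfp952 (0.958) and Zfp944 (0.893 CPM per kb). Neighbours in this order could change places between groups: Zfp956 averaged 1.11, 1.13 and 1.09 CPM per kb in Cdk5i, scrambled-peptide and wild-type libraries, and Zfp948 averaged 1.06, 1.10 and 1.12. The lowest were Zfp935 (0.00406) and Zfp934 (0.00559 CPM per kb), the overlapping pair on chromosome 13. Zfp950 on chromosome 19 had the highest level before length was taken into account, at 63.4 CPM, followed by Zfp943 at 55.7 CPM.

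**Figure D1:**
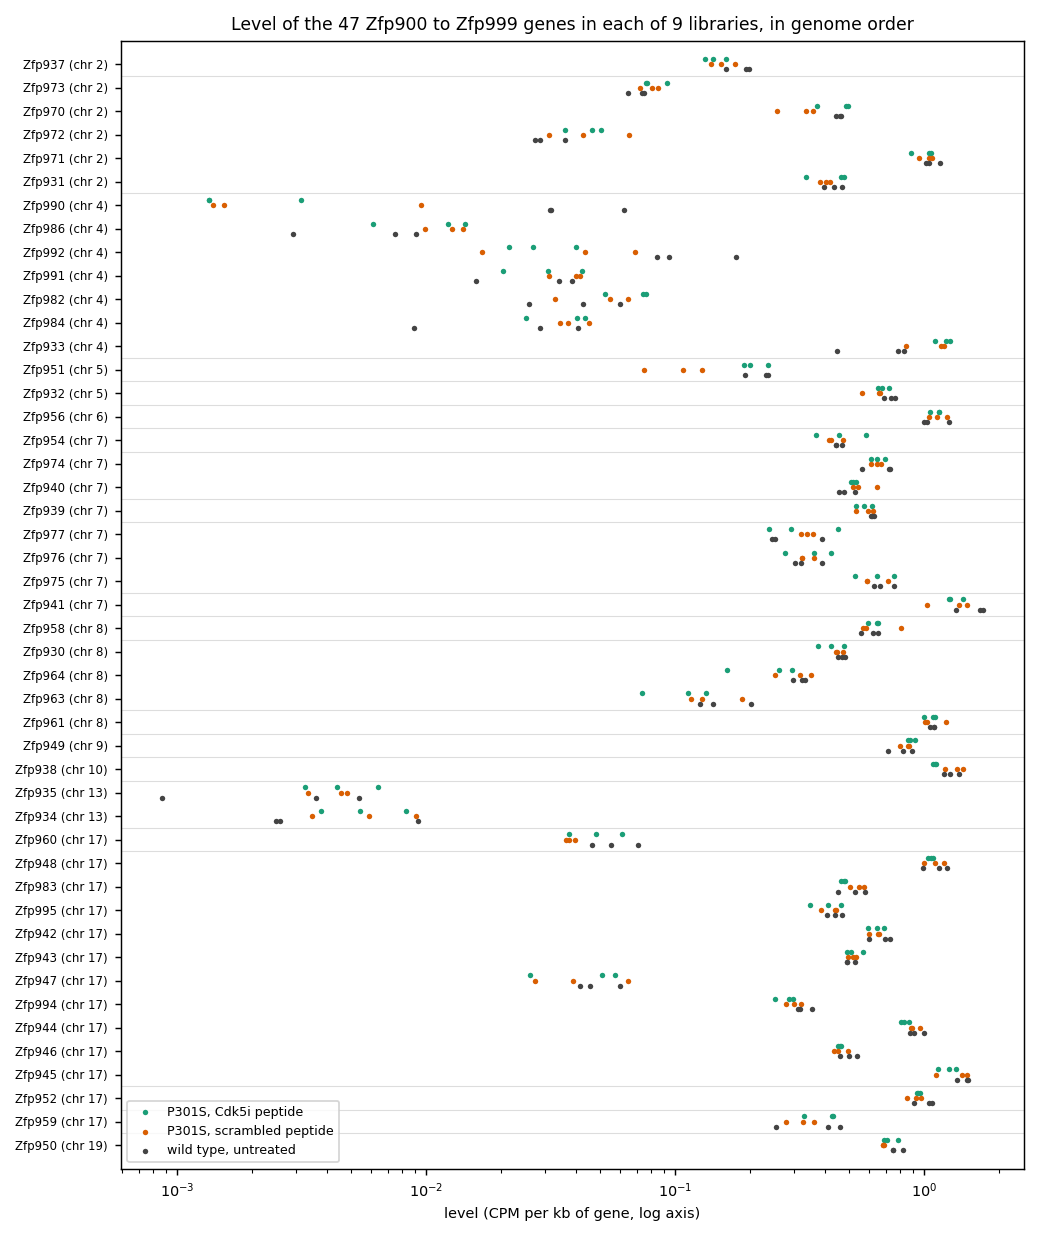
Level of each of the 47 genes (CPM per kb of gene, log axis) in the 9 libraries, 1 point per library, with genes in genome order and thin lines between clusters. Most genes keep their 9 points close together, while those of the chromosome 4 cluster, Zfp951, Zfp963, Zfp934 and Zfp935 spread out.

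Sums over a cluster grow with the number and length of its genes and are given to compare the groups. The 10 genes on chromosome 17 summed to 190 ± 10.2 CPM in Cdk5i libraries, 196 ± 8.96 CPM in scrambled-peptide libraries and 201 ± 5.16 CPM in wild-type libraries (SD, n = 3 each). Zfp943 was the most highly read of them, at 56.6 ± 4.60, 55.8 ± 2.07 and 54.6 ± 2.30 CPM in the same order. The chromosome 2 cluster summed to 26.3 ± 1.96, 24.4 ± 1.84 and 26.4 ± 0.532 CPM, led by Zfp971 at 10.7 ± 1.08, 10.98 ± 0.704 and 11.5 ± 0.764 CPM. In the chromosome 17 sum the 3 groups overlapped, and in the chromosome 2 sum the 3 scrambled-peptide libraries lay below the 3 wild-type libraries.

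On chromosome 7, Zfp977, Zfp976 and Zfp975 summed to 36.8 ± 7.48 CPM in Cdk5i libraries, 36.0 ± 2.86 CPM in scrambled-peptide libraries and 37.1 ± 4.51 CPM in wild-type libraries, with Zfp975 at 21.0 ± 3.73, 20.6 ± 2.32 and 22.3 ± 2.11 CPM. Each of these 3 neighbours was highest in replicate 1 and lowest in replicate 2 of the Cdk5i group, and highest in replicate 2 of the wild-type group. In the scrambled-peptide group they did not share an order, with Zfp977 lowest and Zfp976 and Zfp975 highest in replicate 1. Zfp974 and Zfp940, also on chromosome 7, summed to 24.8 ± 1.14, 25.6 ± 1.501 and 24.6 ± 2.67 CPM. On chromosome 8, Zfp930, Zfp964 and Zfp963 summed to 13.01 ± 0.801, 14.8 ± 0.993 and 15.3 ± 0.310 CPM, with Zfp930 at 9.14 ± 1.09, 9.76 ± 0.368 and 10.03 ± 0.332 CPM. Here the 3 Cdk5i sums lay below the 3 wild-type sums, though no single gene of the cluster passed the test. The pair on chromosome 13 reached 1.02 ± 0.352, 1.01 ± 0.198 and 0.780 ± 0.561 CPM. The chromosome 4 cluster reached 36.4 ± 2.98 CPM in Cdk5i libraries, 33.6 ± 5.24 CPM in scrambled-peptide libraries and 25.1 ± 5.59 CPM in wild-type libraries, a sum made up mainly of Zfp933. The 3 Cdk5i sums lay above the 3 wild-type sums, while scrambled-peptide replicate 1 fell among the wild-type values.

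The same cluster held most of the genes that varied between libraries. The ratio of the highest to the lowest library had a median of 1.44 over the 47 genes and was under 1.5 for 25 of them, with the lowest value, 1.17, for Zfp943. It was over 2.5 for 11 genes, namely the 7 genes on chromosome 4, Zfp951, Zfp963 and the pair Zfp934 and Zfp935. Several of these have few counts, for which counting error alone is wide, but Zfp933 and Zfp951 are well read.

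Counts were tested with edgeR's quasi-likelihood test in 1 fit of all libraries, with Benjamini-Hochberg adjustment over 16046 genes and a threshold of 0.05. Of the 47 genes 46 had enough counts to be tested, all except Zfp986. The 3 comparisons share libraries, so their values for a gene are given side by side and are not independent.

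**Figure D2:**
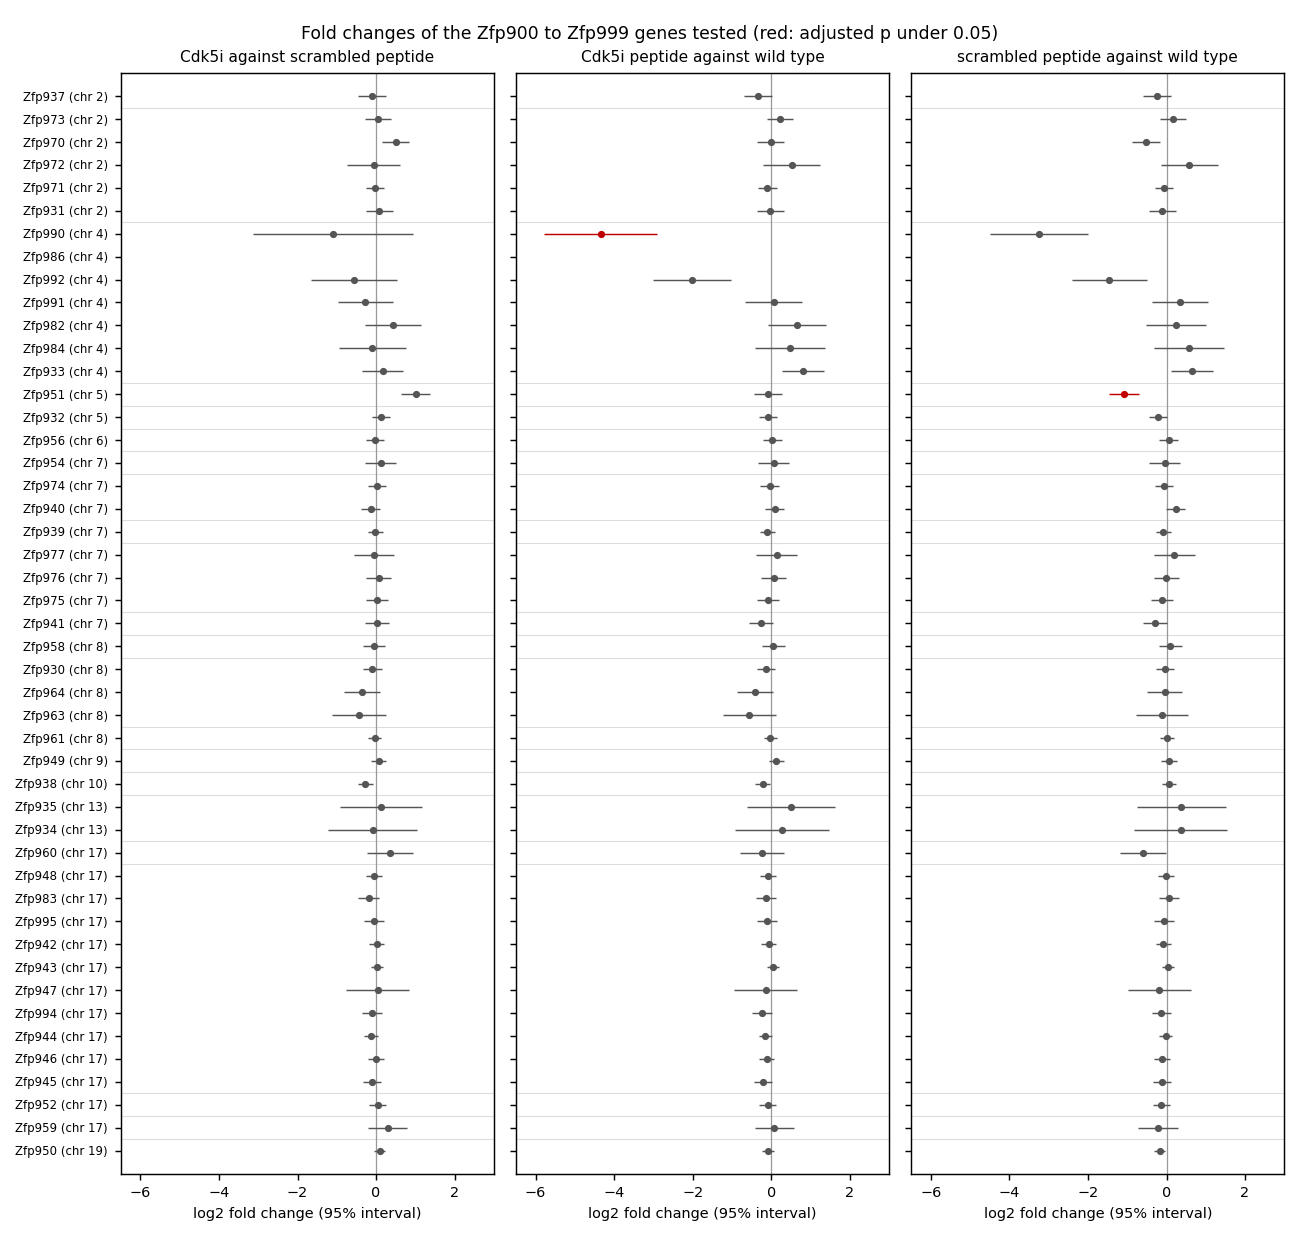
Log2 fold change of each gene with its 95% interval in the 3 comparisons, genes in genome order. Zfp990 against wild type with Cdk5i peptide (-4.34) and Zfp951 against wild type with scrambled peptide (-1.08), in red, had an adjusted p under 0.05, and Zfp986 was not tested.

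The comparison of the Cdk5i with the scrambled peptide asks what the Cdk5i peptide altered in mice that were all transgenic and all injected. None of the 46 genes passed (0 of 46, against 0.0125% of all genes tested, 2 genes). An unadjusted p under 0.05 was found for 3 of them, Zfp951, Zfp938 and Zfp970, against 5.33% of all genes, while DESeq2 called 1, Zfp951. The median log2 fold change was -0.02, and over all genes it was -0.01. Groups that did not overlap were found for 3 genes higher and 3 lower with Cdk5i, or 6.52% in each direction, against 4.95% and 5.38% of all genes (10.3% together).

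Zfp951, on chromosome 5 (ENSMUSG00000072774, chr5:104813169-104860070, minus strand), had the lowest p of these. It had 199, 291 and 246 counts in Cdk5i libraries and 155, 80 and 127 counts in scrambled-peptide libraries. The lowest Cdk5i library lay above the highest scrambled-peptide library. Scaled, this was 9.79 ± 1.15 against 4.84 ± 1.24 CPM (SD, n = 3 each), a log2 fold change of 1.01 (95% interval 0.64 to 1.38) with an edgeR adjusted p of 0.114. It passed in 3 of 13 alternatives, namely without scrambled-peptide replicate 1 (edgeR adjusted p = 0.0391), with DESeq2 (0.000270) and with no filter on low counts. In the other 10 it did not, with an edgeR adjusted p of up to 0.635.

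Zfp970, in the chromosome 2 cluster, had a similar order of groups at a smaller size. It measured 6.47, 4.95 and 6.61 CPM in Cdk5i libraries and 3.43, 4.48 and 4.80 CPM in scrambled-peptide libraries, which did not overlap. The log2 fold change was 0.50 (95% interval 0.16 to 0.85, edgeR adjusted p = 0.768), and 59.3% of this gene's words are shared with other genes. Zfp938, on chromosome 10, was the clearest in the other direction, at 17.9, 18.4 and 18.1 CPM in Cdk5i libraries and 23.4, 20.0 and 22.3 CPM in scrambled-peptide libraries. Its groups did not overlap, and the log2 fold change was -0.27 (95% interval -0.46 to -0.09, edgeR adjusted p = 0.768). Zfp964 (-0.36) on chromosome 8 and Zfp944 (-0.13) on chromosome 17 followed, with edgeR adjusted p values of 0.945 and 0.949.

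Against wild type, Cdk5i libraries differed in 1 of the 46 genes, Zfp990, which fell. This gene reached the count minimum and the filter for testing only through its wild-type libraries. A call for it against wild type could therefore only be a lower one. Over all genes tested 12 (0.0748%) passed, 5 of them lower (0.0312%). An unadjusted p under 0.05 was found for 4 of the 46, against 11% of all genes. The median log2 fold change was -0.08, and over all genes it was -0.01. Groups that did not overlap were found for 2 genes higher and 7 lower, or 4.35% and 15.2%, against 8.03% and 8.22% of all genes (16.3% together). The lower direction thus held more of these genes than of all genes, and the higher direction fewer, a difference that was not tested. Zfp990 is among the 7 lower genes, and without the chromosome 4 cluster 5 of 40 genes were lower and 1 higher. Of the 274 other numbered Zfp genes 26 were lower and 11 higher without overlap, against 1319 and 1289 of the 16046 genes tested. This was not tested either. The 7 lower were Zfp990, Zfp992, Zfp964, Zfp938, Zfp994, Zfp944 and Zfp945, the last 3 lying in the chromosome 17 cluster, and the 2 higher were Zfp973 and Zfp933. Zfp937, a lone gene on chromosome 2, was among the 5 with the lowest p, at 3.27 ± 0.324 CPM in Cdk5i libraries and 4.15 ± 0.479 CPM in wild-type libraries, but its groups overlapped and its edgeR adjusted p was 0.466.

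Zfp990 (ENSMUSG00000078503, chr4:145510759-145539188, plus strand) stands at the low-coordinate end of the chromosome 4 cluster. It had 2, 1 and 1 counts in Cdk5i libraries, 7, 1 and 1 in scrambled-peptide libraries and 19, 19 and 39 in wild-type libraries. Each transgenic library was lower than each wild-type library, and among transgenic libraries scrambled-peptide replicate 1 was the highest. The levels were 0.0552 ± 0.0295, 0.118 ± 0.132 and 1.19 ± 0.506 CPM in the same order (SD, n = 3 each).

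Against wild type the log2 fold change of Zfp990 was -4.34 in Cdk5i libraries (95% interval -5.78 to -2.91, edgeR adjusted p = 0.0354). It was -3.24 in scrambled-peptide libraries (95% interval -4.487 to -1.996, edgeR adjusted p = 0.0923), which missed the threshold. Between the peptides it was -1.10 (95% interval -3.13 to 0.93), so these counts do not tell whether the peptides differed. A share of 39.4% of its transcript words is found in other genes, most often in Zfp987, a gene of the same region that stayed under the count minimum.

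With 90 counts in all, the call for Zfp990 was a narrow one. In edgeR its adjusted p was 0.106, 0.105 and 0.0680 without Cdk5i replicate 1, 2 or 3, and 0.0847, 0.0645 and 0.210 without wild-type replicate 1, 2 or 3. For scrambled peptide it passed without scrambled-peptide replicate 1, where edgeR gave an adjusted p of 0.0347 and a log2 fold change of -4.67, and in DESeq2, at 0.00561.

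Zfp992 (chr4:146449023-146470292, plus strand), the next tested gene of the cluster, was ordered like Zfp990. It had 19, 12 and 15 counts in Cdk5i libraries, 38, 21 and 9 in scrambled-peptide libraries and 38, 43 and 82 in wild-type libraries. After scaling neither transgenic group overlapped wild type, and again scrambled-peptide replicate 1 was the highest transgenic library and wild-type replicate 3 the highest of all. The log2 fold change against wild type was -2.01 for Cdk5i (95% interval -3.01 to -1.02, edgeR adjusted p = 0.169) and -1.45 for scrambled peptide (95% interval -2.40 to -0.50, edgeR adjusted p = 0.321). DESeq2 called Zfp992 for Cdk5i against wild type, at an adjusted p of 0.00951. Its transcripts share 45.8% of their words, mostly with Zfp991.

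At the other end of the cluster Zfp933 (ENSMUSG00000059423, chr4:147822986-147848366, minus strand) was ordered the other way. It had 724, 813 and 733 counts in Cdk5i libraries, 556, 676 and 767 in scrambled-peptide libraries and 443, 427 and 249 in wild-type libraries. Scaled, this was 30.4 ± 2.21, 27.2 ± 4.98 and 17.4 ± 5.33 CPM (SD, n = 3 each), with no overlap between either transgenic group and wild type. The log2 fold change against wild type was 0.80 for Cdk5i (95% interval 0.27 to 1.34, edgeR adjusted p = 0.309) and 0.64 for scrambled peptide (95% interval 0.11 to 1.17, edgeR adjusted p = 0.4204). DESeq2 called Zfp933 for Cdk5i, at an adjusted p of 0.0120. Only 4.59% of its transcript words occur elsewhere, the lowest share in the cluster.

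Between these ends, Zfp991, Zfp982 and Zfp984 had 11 to 59 counts per library and log2 fold changes of 0.07, 0.66 and 0.48 for Cdk5i and 0.34, 0.24 and 0.57 for scrambled peptide against wild type, none of which passed. Zfp986 had 10, 10 and 5 counts in Cdk5i libraries, 8, 10 and 10 in scrambled-peptide libraries and 6, 5 and 2 in wild-type libraries. Wild-type replicate 3 stood apart throughout the cluster. It was the highest wild-type library for Zfp990 and Zfp992, and the lowest for Zfp986, Zfp991, Zfp982, Zfp984 and Zfp933. The same library had the highest sum of microglial markers, 159 CPM, whose part in these values was not tested.

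**Figure D3:**
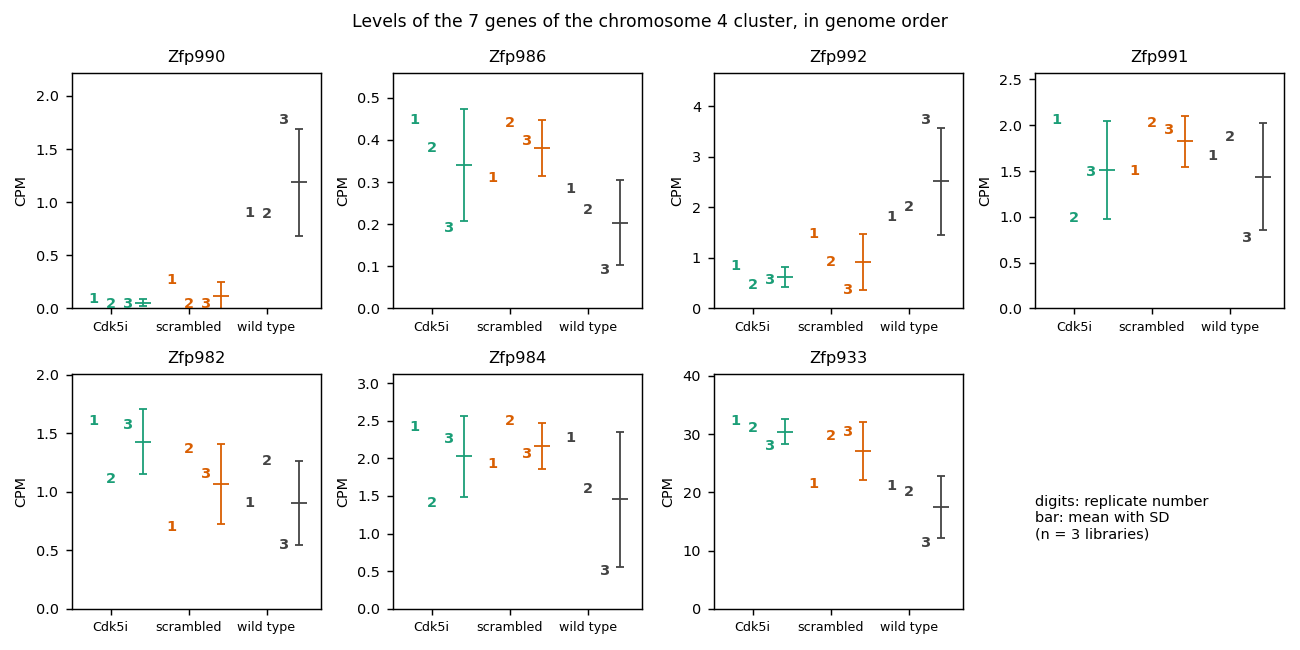
Level (CPM, linear axis from 0) of the 7 chromosome 4 genes in each library, with digits for replicate numbers and bars for the mean with SD (n = 3). Zfp990 and Zfp992 are lower in both transgenic groups than in wild type, Zfp933 is higher, and wild-type replicate 3 is the extreme wild-type library in each panel.

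The genes around the cluster were examined in the same fit. Of 29 other genes tested within it or within 1 Mb of it, 0 passed in edgeR or DESeq2 in each of the 3 comparisons, while 0, 7 and 5 had an unadjusted p under 0.05 for Cdk5i against scrambled peptide, Cdk5i against wild type and scrambled peptide against wild type. For both comparisons with wild type these are 24.1% and 17.2% of the neighbours, against 11% and 10.1% of all genes. The median log2 fold changes of the neighbours were 0.01, 0.06 and 0.07. The lowest unadjusted p values were those of Fbxo2, with log2 fold changes of 1.09 for Cdk5i and 0.98 for scrambled peptide against wild type. Disp3 (0.26 and 0.24), Miip (0.74 and 0.64) and Masp2 (-0.92 and -1.07) also had an unadjusted p under 0.05 in both. For Fbxo2, Disp3 and Masp2 neither transgenic group overlapped wild type. The tested gene nearest below Zfp990, described after its values were seen, was Platr16, a long non-coding RNA gene that starts 101 kb before Zfp990. Platr16 had 3, 4 and 4 counts in Cdk5i libraries, 26, 4 and 1 in scrambled-peptide libraries and 11, 20 and 46 in wild-type libraries. Like Zfp990, Platr16 passed the filter for testing only through its wild-type libraries, so a call against wild type could hardly be other than lower. Its lowest wild-type library lay above each Cdk5i library, while scrambled-peptide replicate 1 lay among the wild-type values. The log2 fold change was -2.97 for Cdk5i against wild type (edgeR adjusted p = 0.314) and -1.51 for scrambled peptide (edgeR adjusted p = 0.568). Platr16, Zfp990 and Zfp992 thus shared the same highest transgenic and the same highest wild-type library.

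**Figure D4:**
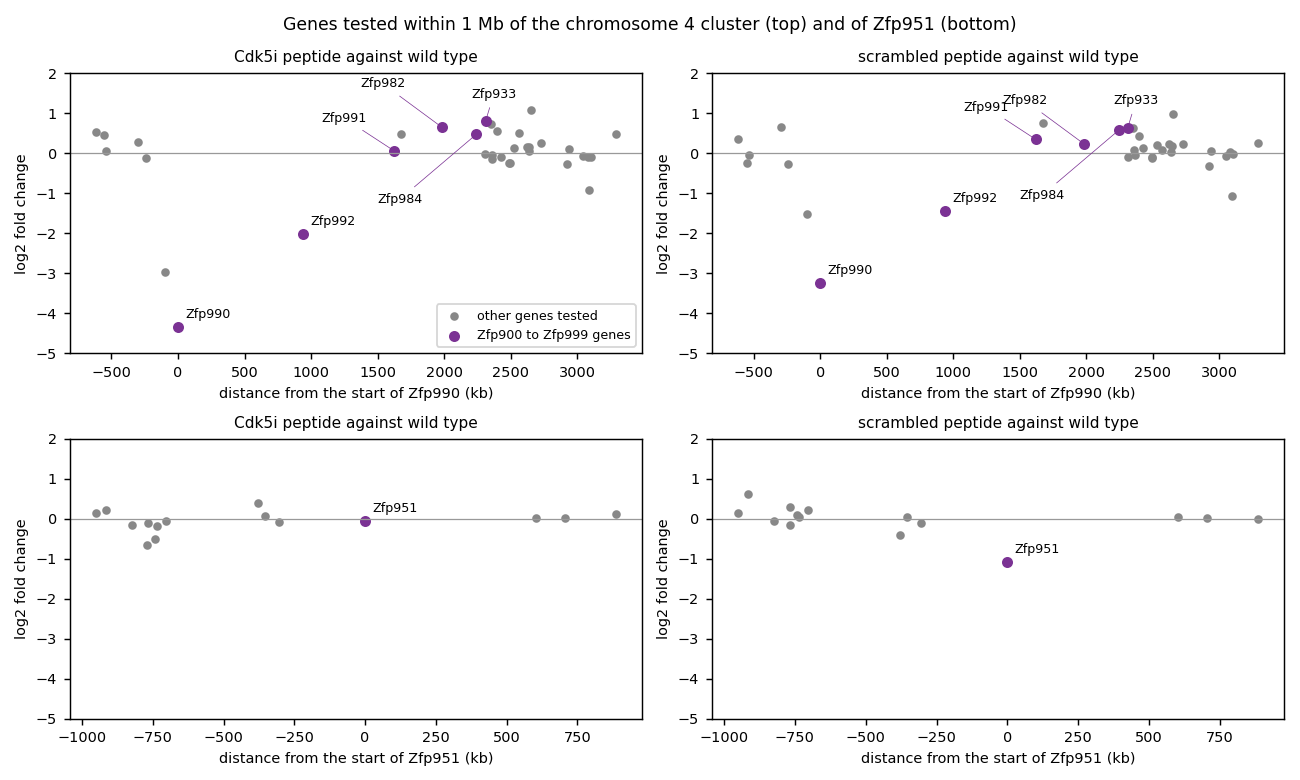
Log2 fold change of the genes tested around the chromosome 4 cluster (top) and around Zfp951 (bottom) against the distance in kb from the start of Zfp990 or Zfp951, in both comparisons with wild type. The lowest points near Zfp990 are Zfp990 itself, Platr16 and Zfp992, and around Zfp951 no neighbour lies as low with scrambled peptide.

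Scrambled-peptide libraries differed from wild type in 1 of the 46 genes as well, Zfp951, which fell. Over all genes tested 13 (0.081%) passed, 7 of them lower (0.0436%). An unadjusted p under 0.05 was found for 7 of the 46, against 10.1% of all genes: Zfp951, Zfp990, Zfp992, Zfp970, Zfp950, Zfp933 and Zfp960. The median log2 fold change was -0.05, against 0.01 over all genes. Groups that did not overlap were found for 1 gene higher, Zfp933, and 7 lower, Zfp990, Zfp992, Zfp951, Zfp970, Zfp932, Zfp960 and Zfp950, or 2.17% and 15.2%, against 8.26% and 8.03% of all genes (16.3% together). Here too the lower direction held more and the higher direction fewer than among all genes, which was not tested. The 7 lower genes include Zfp990, which reached the count minimum and the filter only through its wild-type libraries. Without the chromosome 4 cluster 5 of 40 genes were lower and 0 higher. Of the 274 other numbered Zfp genes 30 were lower and 13 higher without overlap, against 1288 and 1325 of the 16046 genes tested. This was not tested either.

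Zfp951 measured 5.98, 3.51 and 5.04 CPM in scrambled-peptide libraries and 8.92, 11.1 and 10.9 CPM in wild-type libraries, with 155, 80 and 127 against 188, 237 and 240 counts. The groups did not overlap. The log2 fold change was -1.08 (95% interval -1.46 to -0.71), a level 2.12-fold lower, with an edgeR adjusted p of 0.0441. Cdk5i libraries, at 8.88, 11.1 and 9.39 CPM, overlapped wild type, with a log2 fold change of -0.07 (95% interval -0.43 to 0.28, edgeR adjusted p = 0.909). Zfp951 shares 3.44% of its transcript words with other genes.

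The call for Zfp951 also depended on single libraries. In edgeR the adjusted p was 0.137 and 0.108 without scrambled-peptide replicate 2 or 3, 0.0504, 0.175 and 0.177 without wild-type replicate 1, 2 or 3, and 0.0269 without scrambled-peptide replicate 1. Of 14 neighbours tested within 1 Mb of Zfp951, 0 passed in edgeR or DESeq2 in each of the 3 comparisons. In the order in which the comparisons are given above, 2, 0 and 1 had an unadjusted p under 0.05. These are 14.3%, 0% and 7.14% of the neighbours, against 5.33%, 11% and 10.1% of all genes.

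Zfp970, Zfp932, Zfp950 and Zfp960 shared the order of groups of Zfp951 at smaller sizes, and none passed. Zfp970 measured 3.43, 4.48 and 4.80 CPM in scrambled-peptide libraries and 6.12, 6.18 and 5.90 CPM in wild-type libraries, or -0.52 as log2 fold change (adjusted p = 0.321 in edgeR). Zfp950, the most highly read of the 47 genes, measured 59.4, 59.3 and 60.0 CPM against 65.4, 71.2 and 65.0 CPM, or -0.17 as log2 fold change (adjusted p = 0.406 in edgeR). Zfp932 measured 9.18, 7.81 and 9.24 CPM against 9.58, 10.6 and 10.2 CPM, or -0.21 as log2 fold change (adjusted p = 0.543 in edgeR). In each of these genes the lowest wild-type library lay above the highest scrambled-peptide library, and for Zfp932 the gap was narrow. Zfp960, on chromosome 17, gave -0.60 on the log2 scale (adjusted p = 0.481 in edgeR), but 85.4% of its words are shared, nearly all with Zfp97.

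**Figure D5:**
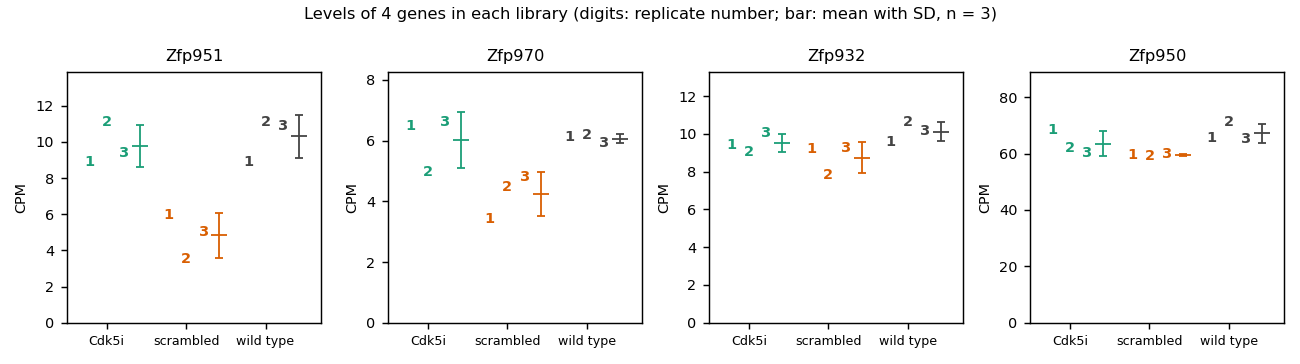
Level (CPM, linear axis from 0) of Zfp951, Zfp970, Zfp932 and Zfp950 in each library, with digits for replicate numbers and bars for the mean with SD (n = 3). In each panel the 3 scrambled-peptide libraries lie below the 3 wild-type libraries, by most for Zfp951 (4.84 against 10.3 CPM on average).

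Zfp951, Zfp970, Zfp932 and Zfp950 carry the promoter stretch printed above. They were singled out after their values were seen, and Zfp960, Zfp990 and Zfp992, which were also lower without overlap, had no window in the table, so this says nothing of the stretch. The 11 genes that carry it did not share 1 direction: against wild type their log2 fold changes with scrambled peptide ran from -1.08 to 0.58, with 8 negative, 3 positive and a median of -0.11, against -0.05 for the 46 genes. Between the peptides they ran from -0.06 to 1.01, with 8 positive and a median of 0.07. For Cdk5i against wild type 7 were negative, with a median of -0.03. Zfp972, which has the stretch and 13 to 33 counts per library, had a log2 fold change of 0.58 with scrambled peptide against wild type.

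The wider family and its partners gave little difference either. Of the 274 other numbered Zfp genes 0 passed in edgeR in each comparison. An unadjusted p under 0.05 was found for 10 of them (3.65%, against 5.33% of all genes) for Cdk5i against scrambled peptide, 25 (9.12%, against 11%) for Cdk5i against wild type and 20 (7.30%, against 10.1%) for scrambled peptide against wild type. Their median log2 fold changes were -0.02, -0.02 and -0.01.

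Of 28 genes for co-repressors and chromatin factors that work with KRAB zinc finger proteins, 26 were tested and 0 passed in edgeR in each comparison. An unadjusted p under 0.05 was found for 0, 2 and 1 of them. These are 0%, 7.69% and 3.85%, against 5.33%, 11% and 10.1% of all genes. The highest of the list by level were Atrx, a chromatin remodeller, at 256 CPM, the DNA methyltransferase gene Dnmt3a at 223 CPM, and the remodellers Chd3 and Chd4 at 115 and 111 CPM on average over the 9 libraries. The log2 fold changes of the list lay between -0.12 and 0.10 for the peptides and between -0.21 and 0.28 for both comparisons with wild type, with medians of 0.0022, -0.03 and -0.01 in the order of the comparisons. DESeq2 called 1, 3 and 2 of the 46 Zfp900 to Zfp999 genes in the order of the comparisons above. Its counts over all genes are given below.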

How the data were processed

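RNA of sorted NeuN-positive cortical nuclei was sequenced as 40-base read pairs from a stranded total RNA kit, per the labels. The deposited values are counts per gene that the authors made with featureCounts (Subread 2.0.0) on whole genes, read pairs and the reverse strand of GRCm38 with Ensembl release 102, per the file headers. STAR 2.7.9a and DESeq2 1.36.0 are named in the submitters' processing notes. Near-identical copies and overlapping genes can share reads, so their counts are uncertain.

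Gene symbols were found for 55141 of 55401 genes (99.5%). The members and lists were chosen with earlier results of these data known. Tests used edgeR 4.0.16 in R 4.3.3 (quasi-likelihood, robust, TMM scaling, filterByExpr with a minimum count of 10) with 3 group means over 9 libraries, adjusted over 16046 genes. The fit was tested on simulated data. Alternatives were DESeq2 1.42.0, its size factors, no filter, a filter of 50 counts, non-robust dispersion, only the 2 groups compared, a replicate block and leaving out each library. Genes named were those past the threshold, the 10 highest per kb, the 5 lowest p per comparison and the highest of each cluster of at least 3. The other genes of the chromosome 4 cluster, those of non-overlapping groups, those with the promoter stretch and the neighbours Platr16, Fbxo2, Disp3, Miip and Masp2 were named after their values were seen.

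Pairs of libraries of a group had Spearman correlations of 0.953 to 0.958 and a chi-square per gene of 5.76 to 16.4, so no library was a copy. Libraries of the same replicate number did not deviate together: 1 of 9 pairs had a correlation above 0.1 (-0.31 to 0.17).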

Additional observations from a re-analysis of the deposited data

How the results depend on the processing

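Calls among the 46 genes were few and moved with the setting. For Cdk5i against scrambled peptide 0 genes passed, 1 with DESeq2 and 1 with no filter, and over all genes 2, 27 and 159. For Cdk5i against wild type 1 gene passed, 3 with DESeq2, 2 with no filter and 0 with a filter of 50 counts, non-robust dispersion or only the 2 groups compared. Over all genes these counts were 12, 104, 408, 6, 3 and 2. For scrambled peptide against wild type 1 gene passed, 2 with DESeq2, 3 with no filter and 0 with the other 3 settings. Over all genes the counts were 13, 75, 318, 6 and 6 in the order main, DESeq2, no filter, filter of 50 and non-robust. With no filter, 3 and 1 neighbours passed in the comparisons with wild type. The cause of these shifts was not tested. DESeq2's size factors in edgeR kept both calls, at adjusted p values of 0.0398 for Zfp990 and 0.0466 for Zfp951.

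No label states that libraries of the same replicate number belong together, and the correlations of 9 pairs cannot settle it. With a replicate block 0 of the 46 genes passed in both comparisons with wild type, and 2 genes of all in each. Under the block the edgeR adjusted p was 0.158 for Zfp990 with Cdk5i and 0.25 for Zfp951 with scrambled peptide.

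Leaving out 1 library at a time gave 0 to 1, 0 to 0 and 0 to 2 calls among the 46 genes for Cdk5i against scrambled peptide, Cdk5i against wild type and scrambled peptide against wild type, and 2 to 18, 2 to 7 and 2 to 17 over all genes. The median log2 fold change ranged over -0.052 to 0.048, -0.088 to -0.010 and -0.07 to -0.03. For Cdk5i against scrambled peptide Zfp990 ranged over -1.54 to 0.33, the positive value being that without scrambled-peptide replicate 1. In edgeR, Zfp990 (Cdk5i against wild type) had an adjusted p of 0.0691 with non-robust dispersion and 0.0651 with only the 2 groups, and could not be tested with a filter of 50 counts. Zfp951 (scrambled peptide against wild type) had 0.0713 with that filter, 0.0983 with non-robust dispersion and 0.0555 with only the 2 groups. Depth limits Zfp990, Zfp986 and the pair on chromosome 13 most, since 10 of the 47 genes had fewer than 300 counts in all.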

Other observations

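The 17 genes of the number range that stayed under 50 counts included Zfp968, Zfp969 and Zfp953, for which no read was counted in the 9 libraries. Zfp985, Zfp981, Zfp988, Zfp993, Zfp979, Zfp980, Zfp987, Zfp989 and Zfp978 lie on chromosome 4, and Zfp965 to Zfp969 on chromosome 2, where the better read genes of those clusters lie as well.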
